A study of Mus musculus with 6 samples.

Results

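The genes described here are 7 cyclic nucleotide phosphodiesterases (PDEs; Pde2a, Pde3b, Pde4a, Pde4b, Pde4d, Pde7a and Pde8a), the prostaglandin E2 receptor genes Ptger2 and Ptger4, and Adcy7, an adenylyl cyclase. They were taken by gene symbol from the normalized table deposited with the study, and all 10 were found among its 13564 rows. The measurements come from RNA sequencing of naive CD4 T (CD4N) cells activated in culture, in 3 Foxo1TKO and 3 Foxo1Ctrl libraries. The comparison asks how activated CD4 T cells differ when they lack Foxo1, a transcription factor of the forkhead family that maintains the naive state of T cells.

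Foxo1TKO mice carry floxed Foxo1 alleles and a CD4cre transgene, which removes Foxo1 from the CD4 and the CD8 lineage alike from the double-positive stage in the thymus. Foxo1Ctrl mice carry the same floxed alleles without Cre. Both also carry a Foxp3-GFP reporter according to the study's methods. The strain of every sample is given as C57BL/6J and the mice are described as young adults. Sorted CD4N cells from lymph nodes of either genotype received anti-CD3 antibody (0.1 µg/ml) for 4 days. All 6 cultures also held 250000 splenocytes from T cell-deficient CD3eKO mice to present the antibody. The labels give 50000 T cells per culture, a number that differs from the one in the study's methods. No source says whether splenocytes were removed before the RNA was made, or whether the 3 cultures of a genotype came from separate mice, so the p-values measure only the spread between these libraries. In RNA of bulk cultures, fewer cells of a type and less RNA per cell cannot be told apart.

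Cyclic AMP (cAMP) is a second messenger that restrains T cell receptor signaling. Prostaglandin E2, adenosine and vasoactive intestinal peptide bind receptors coupled to the G protein Gs, which turns on adenylyl cyclases. The cAMP they make acts on protein kinase A (PKA) and on the exchange factors known as EPAC. PDEs break cAMP down and so end the signal. The PDE families differ in substrate and control. PDE4, PDE7 and PDE8 enzymes are specific for cAMP, PDE3 cleaves cAMP and is inhibited by cGMP, and PDE2 cleaves both nucleotides and is stimulated by cGMP. In T cells PDE4 enzymes are recruited to the activated receptor complex, and PDE4 inhibitors are used as anti-inflammatory drugs.

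The 6 libraries held between 14783853 and 19675407 counts each, 99.9% of them in the 13691 genes tested. Foxo1 itself, the targeted gene, had 85.4, 46.5 and 115 TMM-normalized counts in the Foxo1TKO libraries and 1529, 2285 and 1598 in the Foxo1Ctrl libraries (log2 fold change -4.45, SE 0.36, edgeR adjusted p = 0.000195), as the labels say. Genotypes were compared with edgeR's quasi-likelihood test, and a gene was called lower or higher when its p, adjusted over all genes tested, was under 0.05 and its fold change over 1.5. By this rule 3144 genes were called, 1619 of them lower and 1525 higher in Foxo1TKO. The number fell to 1854 without Foxo1TKO library 2 and to 2031 without Foxo1Ctrl library 1. Log2 fold changes are given throughout as Foxo1TKO against Foxo1Ctrl, and values in brackets after a mean are SDs over 3 libraries.

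Transcript sequences are shown first for Pde4d, because the length of its transcripts differed between the genotypes. These are the first 60 coding bases of 3 of its transcripts in GENCODE M21 (GRCm38, chromosome 13, plus strand), read from the reference. Capitals mark the bases that belong to the stretch of 1506 coding bases, running to the stop codon, that is identical in all 3. Transcript Pde4d-207 (4207 bases, 10 exons) begins its coding sequence at chr13:109903441, and its first shown bases lie before that stretch. Pde4d-203 (1955 bases) begins at chr13:109927225 and Pde4d-204 (1724 bases) at chr13:109925272.
Pde4d-207: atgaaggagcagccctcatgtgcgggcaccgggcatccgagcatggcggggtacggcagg
Pde4d-203: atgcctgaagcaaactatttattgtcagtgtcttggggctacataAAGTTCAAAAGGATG
Pde4d-204: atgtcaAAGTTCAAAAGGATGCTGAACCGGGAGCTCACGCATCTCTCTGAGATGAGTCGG
The 3 transcripts thus encode the same end of the enzyme and differ in how it starts. They differ more in the bases that follow the coding sequence, which number 2120 in Pde4d-207, 23 in Pde4d-203 and 3 in Pde4d-204. These 3 are shown as examples. The abundance of each transcript was not analysed, and only the bounds on the share of Pde4d-207 given below follow from the lengths. Other coding transcripts, such as Pde4d-209 (2554 bases), share a longer stretch of 1619 coding bases with Pde4d-207.

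Promoter windows are shown for Pde4b, the member with the smallest adjusted p, whose windows were also the only ones of the members to hold the forkhead core GTAAAC. RefSeq windows of 300 bases (GRCm38.p6, 250 before and 50 after a start site) were available for 8 of the 10 genes, with 19 windows in all, and not for Pde3b and Pde7a. The only Pde4d window, chr13:108653927-108654226, does not cover the start of Pde4d-207 at chr13:109903106, so that promoter was not searched. The core was searched on both strands (GTAAAC and GTTTAC) and is in capitals. The first window spans chr4:102421305-102421604 and the second chr4:102589593-102589892, both on the plus strand.
Pde4b window 1: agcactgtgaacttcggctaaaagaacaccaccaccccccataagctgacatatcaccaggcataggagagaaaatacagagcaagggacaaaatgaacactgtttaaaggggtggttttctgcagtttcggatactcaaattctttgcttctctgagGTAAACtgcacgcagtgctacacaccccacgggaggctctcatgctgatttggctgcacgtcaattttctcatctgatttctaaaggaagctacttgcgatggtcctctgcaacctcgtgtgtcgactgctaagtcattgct
Pde4b window 2: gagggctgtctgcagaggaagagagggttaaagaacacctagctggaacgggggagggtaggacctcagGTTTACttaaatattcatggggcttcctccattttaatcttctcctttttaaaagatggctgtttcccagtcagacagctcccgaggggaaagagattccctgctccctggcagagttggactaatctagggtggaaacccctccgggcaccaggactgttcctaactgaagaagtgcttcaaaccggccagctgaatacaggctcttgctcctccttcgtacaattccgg
The core begins at -92 from the start site in the first window and at -181, on the minus strand, in the second. It occurred in 2 of the 19 windows of the members, against 7.89% of the 32851 windows of all genes. The longer FOXO motif GTAAACA (or TGTTTAC), which contains this core, was in none of the 19 and in 3.65% of all windows. The cAMP response element TGACGTCA was likewise in none of the 19 and in 1.79% of all, and its core TGACG (or CGTCA) was in 5, 1 each of Adcy7, Pde2a, Pde4a, Pde4b and Pde8a, and in 20.8% of all. A match describes letters in these windows and not binding.

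Of the 10 genes, 6 were called lower in Foxo1TKO (Pde2a, Pde3b, Pde4b, Pde8a, Ptger2 and Adcy7), 1 was called higher (Pde4d), and 3 were not called (Pde4a, Pde7a and Ptger4). Among all genes tested, 11.8% were called lower and 11.1% higher. The same 6 genes had all 3 Foxo1TKO libraries below all 3 Foxo1Ctrl libraries and the same 1 had them above, against 21.2% and 21.5% of all genes. The median log2 fold change of the 10 genes was -1.07, against 0.01 over all genes tested. Because the 10 genes were chosen with earlier results of these data known, these comparisons describe them and do not test them as a set.

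**Figure D1:**
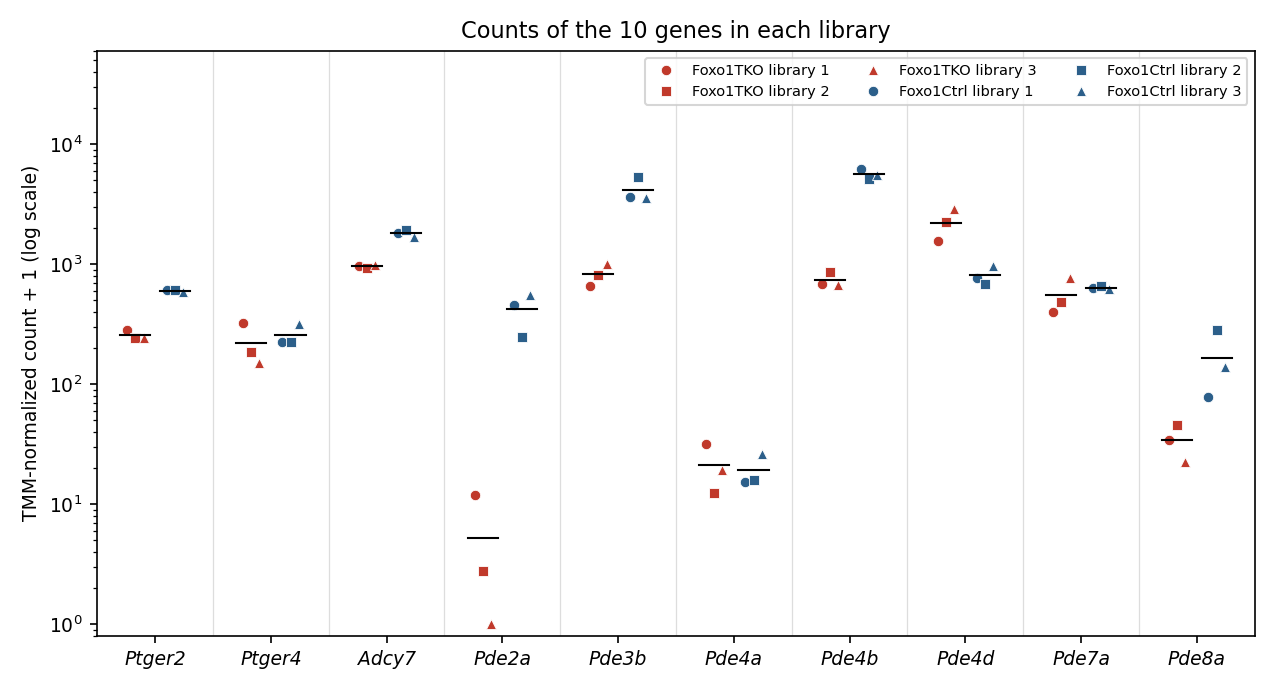
TMM-normalized counts plus 1 of the 10 genes on a log axis, with 1 point per library and a line at the mean of each genotype. Points of the genotypes lie apart for Ptger2, Adcy7, Pde2a, Pde3b, Pde4b and Pde8a (Foxo1TKO lower) and Pde4d (Foxo1TKO higher), and overlap for Ptger4, Pde4a and Pde7a.

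Ptger2 and Ptger4 encode EP2 and EP4, the Gs-coupled receptors through which prostaglandin E2 raises cAMP. Ptger2 (chr14:44988195-45003820) had 279.7, 241 and 241 normalized counts in the Foxo1TKO libraries and 613, 609.5 and 580.4 in the Foxo1Ctrl libraries. The Foxo1TKO values lay close together and well below all Foxo1Ctrl values. The log2 fold change was -1.24 (SE 0.17, edgeR adjusted p = 0.0017), with a Foxo1Ctrl mean 2.36 times the Foxo1TKO mean. Exons of Gm49364 and Gm17173, both on the opposite strand, overlap those of Ptger2, and the sources used here do not say whether counting used strand. Their expected counts were also lower in Foxo1TKO, at 16.6 to 68.8 against 129 to 185 for Gm49364 and 85.7 to 129 against 144 to 233 for Gm17173. Their part in the Ptger2 result was not tested.

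Ptger4 (chr15:5206661-5244187) had 321, 185 and 149 normalized counts in Foxo1TKO and 224, 224 and 316 in Foxo1Ctrl. The highest and the lowest of the 6 values were both from Foxo1TKO libraries, and the genotypes overlapped. Its log2 fold change of -0.22 (SE 0.32, edgeR adjusted p = 0.666) was smaller than its error. Exons of Ttc33 and Gm15937 on the opposite strand overlap Ptger4. The log2 ratio of Ptger4 to Ptger2 in TPM (a level scaled for transcript length and library size, which allows genes to be compared) was -0.25 (0.45) in Foxo1TKO and -1.29 (0.31) in Foxo1Ctrl. Every Foxo1TKO library had a higher ratio than every Foxo1Ctrl library, which gives the smallest p that an exact two-sided permutation test of 3 against 3 can reach (p = 0.1).

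Adcy7 (chr8:88272403-88329962) encodes adenylyl cyclase 7, a main cAMP-producing enzyme of lymphocytes. It had 967, 931 and 979.8 normalized counts in Foxo1TKO and 1821, 1929 and 1668 in Foxo1Ctrl. The spread within each genotype was small beside the gap between them. The log2 fold change was -0.91 (SE 0.14, edgeR adjusted p = 0.00283). This was the smallest of the 7 called changes.

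Pde2a (chr7:101421691-101512827), the cGMP-stimulated PDE, went from clear expression to near absence. Its normalized counts were 459, 247 and 549 in Foxo1Ctrl and 10.99, 1.75 and 0 in Foxo1TKO. Foxo1TKO library 3 held no count of it, library 2 held 2 and library 1 held 13. The log2 fold change was -6.26 (SE 0.74, edgeR adjusted p = 0.00106), the largest of the 10 genes, and depends on the prior count where a library is at 0. Exons of Gm45837 on the same strand overlap Pde2a, and RSEM assigned 309 expected counts to Gm45837 in Foxo1Ctrl library 1 and none in the other 5 libraries.

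Pde3b (chr7:114415281-114539251), the cGMP-inhibited enzyme, had 660.1, 803 and 996 normalized counts in Foxo1TKO and 3597, 5315 and 3545 in Foxo1Ctrl. The highest Foxo1TKO value was far below the lowest Foxo1Ctrl value. Its log2 fold change was -2.34 (SE 0.23, edgeR adjusted p = 0.000493), and its Foxo1Ctrl mean was 5.07 times its Foxo1TKO mean.

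The PDE4 family gave 3 different results. Pde4b (chr4:102087543-102607259), the PDE4 gene most tied to T cell receptor and inflammatory signaling, had 678, 858 and 662 normalized counts in Foxo1TKO and 6192, 5097 and 5527 in Foxo1Ctrl. Each genotype kept to a narrow range, and the ranges lay far apart. The log2 fold change was -2.93 (SE 0.17, edgeR adjusted p = 6.47e-05), the smallest adjusted p of the 10, with a Foxo1Ctrl mean 7.65 times the Foxo1TKO mean. Pde4a (chr9:21165714-21213248) was barely expressed in either genotype, with 30.4, 11.4 and 18.2 counts in Foxo1TKO and 14.3, 14.9 and 25.2 in Foxo1Ctrl. These values overlapped, the log2 fold change was 0.13 (SE 0.47, edgeR adjusted p = 0.869), and it turned to -0.30 without Foxo1TKO library 1 and to about 0 without Foxo1Ctrl library 1. Pde4c did not reach the count needed for a test (19, 12 and 3 counts in Foxo1TKO, 0, 0 and 6 in Foxo1Ctrl).

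Pde4d (chr13:108449948-109953461) was the only one of the 10 genes called higher. It had 1543, 2258 and 2855 normalized counts in Foxo1TKO and 764, 678 and 969.9 in Foxo1Ctrl. The lowest Foxo1TKO value exceeded the highest Foxo1Ctrl value. The log2 fold change was 1.46 (SE 0.25, edgeR adjusted p = 0.00512). Once counts were divided by the effective transcript length of each library the same difference was larger, at 2.58 (SE 0.29, edgeR adjusted p = 0.000758), because the length itself differed between the genotypes.

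That length is the mean length of a gene's transcripts, weighted by the abundance RSEM gave to each. For Pde4d it was 2047, 1850 and 1785 bases in Foxo1TKO and 3910, 3709 and 3918 bases in Foxo1Ctrl. The means of 1894 (137) and 3846 (119) bases thus differed 2.03-fold, without overlap, at the smallest p an exact two-sided permutation test allows here (p = 0.1). Of the 9778 genes with several transcripts and at least 10 counts in every library, 12.9% had lengths without overlap, 5.95% with the shorter ones in Foxo1TKO. Only 0.45% (44 genes) were without overlap and more than 1.5-fold apart. None of the 8 other members that could be compared had lengths without overlap, and Pde2a had too few counts.

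**Figure D2:**
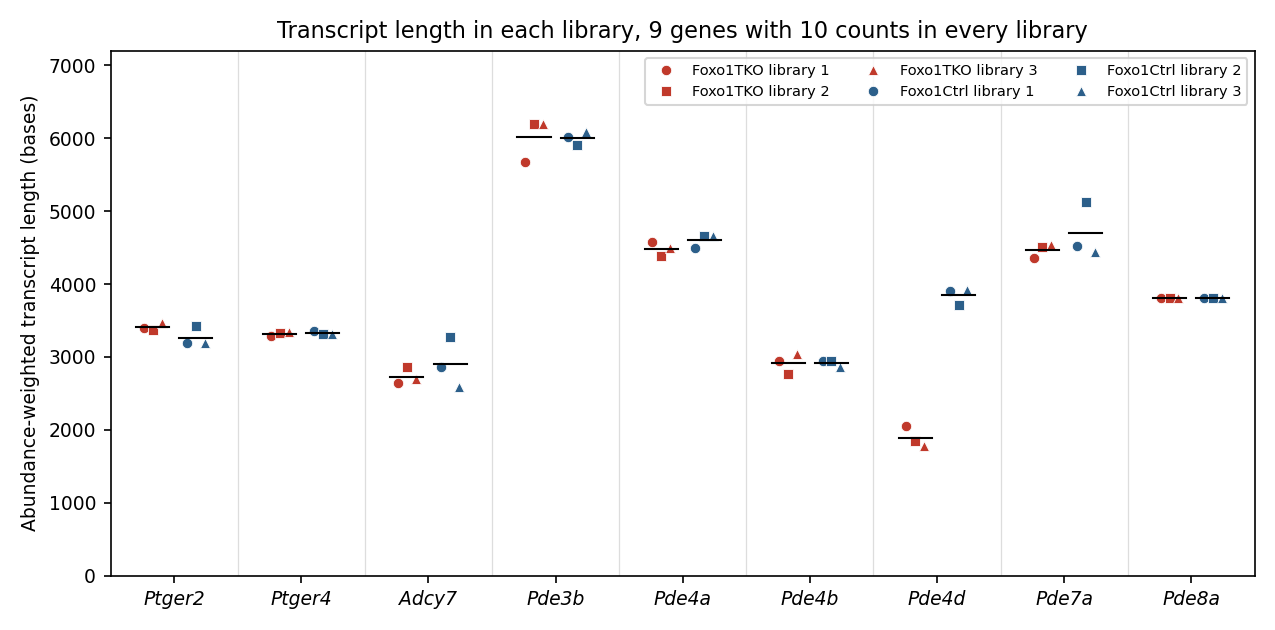
Abundance-weighted transcript length in bases of the 9 genes with at least 10 counts in every library, with 1 point per library and a line at the mean of each genotype. Pde4d is the gene whose genotypes are apart, near 1894 bases in Foxo1TKO and 3846 bases in Foxo1Ctrl.

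The annotation limits which transcripts can give these lengths. All 20 Pde4d transcripts of the count files are in GENCODE M21, and Pde4d-207 is the only one longer than 2554 bases. A mean of 3709 to 3918 bases therefore requires that it made up at least 69.8%, 82.0% and 82.5% of Pde4d transcripts in Foxo1Ctrl libraries 2, 1 and 3. In Foxo1TKO it can have been at most 42.0%, 36.7% and 35.0% in libraries 1, 2 and 3. These bounds rest on the lengths alone and inherit RSEM's assignment of reads to transcripts. Pde4d-207 ends 1987 bases beyond every other Pde4d transcript, at chr13:109953461, and the part of it that no other transcript reaches follows the stop codon. Coverage along the gene and the abundance of each transcript were not analysed here.

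Pde7a (chr3:19223108-19311322), a cAMP-specific enzyme, had 399, 483 and 759 normalized counts in Foxo1TKO and 633, 653 and 615 in Foxo1Ctrl. Foxo1TKO library 3 was above all Foxo1Ctrl libraries and the other 2 were below them. The log2 fold change was -0.21 (SE 0.25, edgeR adjusted p = 0.579). Pde8a (chr7:81213596-81334533), an enzyme of high affinity for cAMP, had 33.0, 44.7 and 21.5 counts in Foxo1TKO and 76.3, 282 and 137 in Foxo1Ctrl. The genotypes did not overlap, although the Foxo1Ctrl values were spread widely. Its log2 fold change of -2.28 (SE 0.51, edgeR adjusted p = 0.0153) had the largest adjusted p of the 7 calls, and without Foxo1TKO library 3 it was -2.06 with an adjusted p of 0.0511.

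Per length, the order of the 10 genes differed between the genotypes. In Foxo1Ctrl, Pde4b was first at 132 (24.8) TPM, above Pde3b at 45.1 (6.44) and Adcy7 at 42.7 (6.57) TPM, which overlapped. Pde4d at 14.1 (3.37) TPM overlapped Ptger2 at 12.5 (1.70) TPM, and Pde2a and Pde7a followed at 9.82 (3.06) and 9.06 (1.40) TPM. Pde4d moved to the first place in Foxo1TKO, at 85.5 (24.5) TPM, with no overlap with Adcy7 at 25.0 (3.09) or Pde4b at 17.9 (3.72) TPM. Pde3b and Pde7a came next at 9.22 (0.81) and 8.32 (2.06) TPM and overlapped. By mean, Ptger4 and Pde8a lay below Pde3b and Pde7a in both genotypes. Ptger4 and Pde7a overlapped in Foxo1TKO, where Ptger4 reached 7.49 TPM and the lowest Pde7a value was 6.95 TPM. Pde4a was last in Foxo1Ctrl at 0.27 (0.10) TPM, and Pde2a was last in Foxo1TKO at 0.08 (0.11) TPM.

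Over all 24 genes named as cyclic nucleotide PDEs the summed level was 169, 205 and 218 TPM in Foxo1TKO and 285, 231 and 288 TPM in Foxo1Ctrl. The sums did not overlap. One of the 24, Pde6d, encodes a prenyl-binding protein named for its discovery with the retinal enzyme, so the sums are also given without it. The other 23 summed to 104, 137 and 153 TPM in Foxo1TKO and 241, 193 and 232 TPM in Foxo1Ctrl. Of the sum over 24 genes, Pde4b made up 9.21% (2.33) in Foxo1TKO and 48.9% (4.17) in Foxo1Ctrl, and Pde4d 42.7% (7.24) and 5.22% (0.76). Pde3b made up 4.70% (0.45) and 17.2% (4.77), and Pde2a 0.04% (0.06) and 3.6% (0.77). Pde6d made up 33.8% (4.49) and 17.2% (2.00). Without Pde6d, a setting added after the data were seen, the share of Pde4b was 14.1% (4.24) in Foxo1TKO and 59.0% (4.68) in Foxo1Ctrl, and that of Pde4d 64.3% (6.62) and 6.32% (1.08). The shares sum to 100, so a fall of one raises the others. Summed as normalized counts, without length, the 24 genes gave 5627 (1084) in Foxo1TKO and 12823 (375) in Foxo1Ctrl, and the 23 without Pde6d gave 4642 (1003) and 12112 (436).

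**Figure D3:**
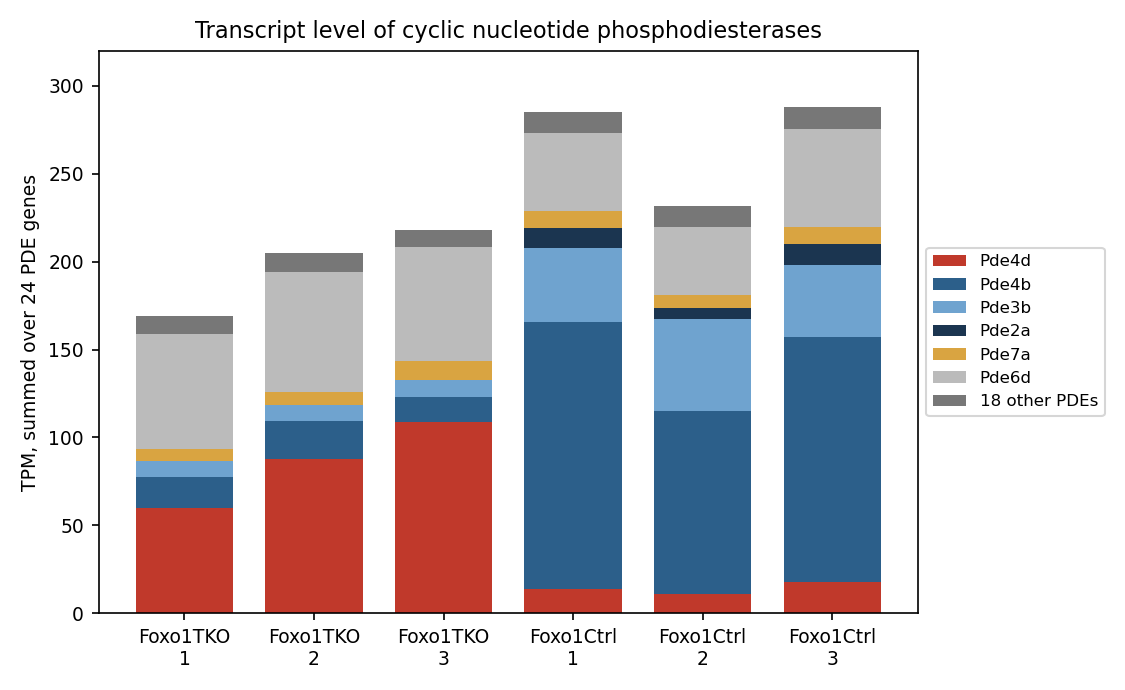
Stacked bars of the level in TPM of 24 genes named as cyclic nucleotide PDEs in each library, with 6 genes in colors of their own and the other 18 together. Pde4b is the largest segment in every Foxo1Ctrl bar, and Pde4d together with Pde6d makes up most of every Foxo1TKO bar.

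Within the PDE4 family the log2 ratio of Pde4b to Pde4d in TPM was 3.23 (0.23) in Foxo1Ctrl and -2.24 (0.62) in Foxo1TKO. The sign of this ratio was opposite in the genotypes, in all 6 libraries. The difference was -5.47 in TPM and -4.38 in normalized counts. Every Foxo1TKO library had less Pde4b and more Pde4d than every Foxo1Ctrl library. The exact two-sided permutation p of 0.1 for each, the smallest possible, therefore followed from those results and adds nothing to them. For Pde4b to Pde4a the log2 ratio was 8.995 (0.43) in Foxo1Ctrl and 5.95 (0.89) in Foxo1TKO (difference -3.05, exact permutation p = 0.1).

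The rest of the pathway was described from 11 lists of 96 other genes, of which 56 had enough counts to be tested and 16 had no count in any library. Of the 56, 9 were called lower, 6 higher and 41 neither, with a median log2 fold change of -0.22. Over all genes tested, 11.8% were called lower and 11.1% higher. The number called higher was 3 without Foxo1TKO library 2, without Foxo1TKO library 3 or without Foxo1Ctrl library 1.

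Of 17 other PDE genes, 7 were tested. Pde1a, a calcium-stimulated PDE, was called lower, with 1, 2 and 3 counts in Foxo1TKO and 27, 64 and 41 in Foxo1Ctrl, a count ratio of 26.1 with a 95% counting interval of 11.7 to 72.4. Pde7b was called higher, with 15.2, 23.7 and 30.0 normalized counts against 0, 6.86 and 1.94 (log2 fold change 2.61, SE 0.71, edgeR adjusted p = 0.0321). Both genes were expressed at a low level, and their groups did not overlap. Pde1b, Pde5a, Pde6d, Pde8b and Pde11a were not called, with log2 fold changes between -1.41 for Pde5a and 0.47 for Pde6d. The other 10, among them Pde3a, Pde6c, Pde9a and Pde10a, had too few counts for a test.

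Among the 7 other prostanoid receptors, Ptger3 and Tbxa2r were called in opposite directions. Ptger3 encodes EP3, which is coupled mainly to Gi and lowers cAMP. It had 72.7, 66.7 and 94.4 normalized counts in Foxo1TKO and no count in any Foxo1Ctrl library, at least 23.6-fold higher against a floor of 3 counts per library. The sum of 4 mast cell and basophil markers moved with it, at 4.59 to 8.36 CPM (counts scaled to library size) in Foxo1TKO and 0.92 to 1.22 CPM in Foxo1Ctrl, and their part in this result was not tested. Tbxa2r, the thromboxane receptor, had 28.7, 7.90 and 7.51 normalized counts in Foxo1TKO and 200.3, 82.3 and 158 in Foxo1Ctrl (log2 fold change -3.21, SE 0.58, edgeR adjusted p = 0.00616). Ptgir, the Gs-coupled prostacyclin receptor, was not called (-0.10, SE 0.29). Ptger1, Ptgdr, Ptgdr2 and Ptgfr were not tested for want of counts.

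Adcy5 was the one of the 9 other adenylyl cyclases that was called, with 35.5, 43.9 and 22.5 normalized counts in Foxo1TKO and 0, 1.14 and 3.88 in Foxo1Ctrl (log2 fold change 3.66, SE 0.64, edgeR adjusted p = 0.00558). Adcy3 (0.44, SE 0.43) and Adcy6 (-0.72, SE 0.33) were not called, and the other 6 were not tested.

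Of the 4 other Gs-coupled receptors tested, 2 were called lower. Vipr1, a receptor of vasoactive intestinal peptide, had 7.61, 3.51 and 9.66 normalized counts in Foxo1TKO and 228, 207 and 188 in Foxo1Ctrl (log2 fold change -4.73, SE 0.36, edgeR adjusted p = 0.000169). The adenosine receptor Adora2a (0.12, SE 0.76) and the histamine receptor Hrh2 (-1.47, SE 0.45, edgeR adjusted p = 0.0503) were not called. Among prostanoid enzymes, Ptges2 was called higher (1.91, SE 0.49, edgeR adjusted p = 0.0252) and Ptges, the inducible prostaglandin E synthase, lower, with 1 count in all Foxo1TKO libraries together and 62 in the Foxo1Ctrl libraries. The ratio of the Ptges counts was 73.5, with a 95% counting interval of 12.7 to 2950. Ptgs2, the inducible cyclooxygenase, had no count in any library.

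In the lists of G proteins, PKA, EPAC, PKA anchoring proteins, the CREB family and cGMP synthesis, 6 genes were called. Gnas, which encodes the alpha subunit of Gs, rose by 0.92 on the log2 scale (SE 0.27, edgeR adjusted p = 0.0417). Its genotypes overlapped, with 3600 normalized counts in Foxo1TKO library 1 and 3615 in Foxo1Ctrl library 2. Prkar2b, a regulatory subunit of PKA, rose by 4.01 (SE 0.49, edgeR adjusted p = 0.00124). Rapgef4, the EPAC gene with enough counts for a test, had a log2 fold change of -1.16 (SE 0.26, edgeR adjusted p = 0.0147). Akap13, an anchoring protein of PKA, was lower (-1.32, SE 0.14, edgeR adjusted p = 0.000603), as were Crtc3, a coactivator of the transcription factor CREB (-0.98, SE 0.23, edgeR adjusted p = 0.0191), and Gucy1a1, a subunit of soluble guanylyl cyclase (-4.43, SE 0.49, edgeR adjusted p = 0.000745). The 7 other tested PKA genes, 9 other anchoring proteins and 8 other genes of the CREB list were not called.

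**Figure D4:**
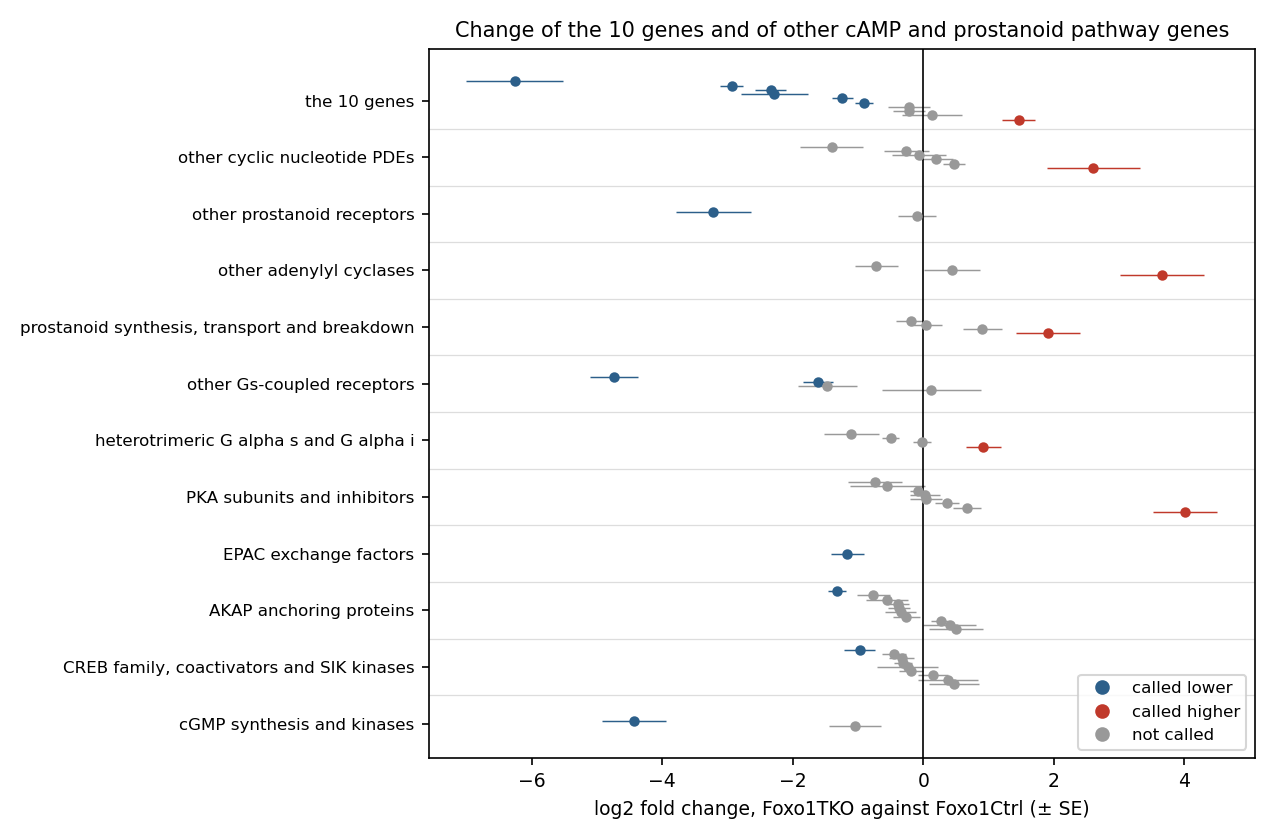
Log2 fold change of Foxo1TKO against Foxo1Ctrl with its SE for the 10 genes and for 53 other tested pathway genes, by list, colored by call. Ptger3, Pde1a and Ptges are left out because all libraries of 1 genotype had at most 3 counts. Of the 10 genes Pde2a lies farthest to the left and Pde4d farthest to the right, and Pde4d is the only one called higher.

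For the 3 members with the largest change, the genes closest in pattern over the 6 libraries were found by the root mean square difference of centred log2 CPM. For Pde2a these were Klf2, A530021J07Rik and Ly6c1, at 0.65, 0.97 and 1.02. Pde4b was closest to E130215H24Rik, Ifi206 and Gvin1, at 0.14, 0.15 and 0.16. For Pde3b, Ifi209 and Cnga1 were among the 3 closest, at 0.09 and 0.11. The neighbours of Pde2a were thus less close to it than those of the other 2 genes. Pde2a had 13, 2 and 0 counts in Foxo1TKO, where its log2 CPM depends on the prior count. Since all neighbours were picked for the pattern of genes that are lower in Foxo1TKO, their own direction follows from the choice.

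The cell types in the cultures were checked by their markers. T cell markers made up 9618 to 10379 CPM in Foxo1TKO and 10707 to 11219 CPM in Foxo1Ctrl, and Cd3e had between 7457 and 11181 normalized counts in every library. Of these 10 genes 2 were called lower in Foxo1TKO, Cd28 (log2 fold change -1.43, SE 0.17, edgeR adjusted p = 0.00119) and Trbc2 (-0.67, SE 0.15, edgeR adjusted p = 0.0148). Another pair, Cd3d and Trbc1, was lower without overlap and not called. Lck was higher without overlap and not called. Cd4 varied widely within each genotype, at 2441 to 7730 normalized counts in Foxo1TKO and 2410 to 8386 in Foxo1Ctrl. B cell markers, which the added splenocytes can supply, moved with the genotype. Of 10 such genes 9 were tested and 6 were called lower in Foxo1TKO, and their sum was 298 to 395 CPM in Foxo1TKO and 668 to 1247 CPM in Foxo1Ctrl, most of it Ighm. Pax5 was at 0 in Foxo1TKO library 3. The 2 tested plasma cell markers of 4 were also lower (21.7 to 55.0 against 93.6 to 126 CPM for the list). Markers of some other cell types had larger sums in Foxo1TKO, at low levels. Mast cell and basophil markers summed to 4.59 to 8.36 CPM in Foxo1TKO and 0.92 to 1.22 CPM in Foxo1Ctrl. Of these 4 genes Cpa3 was tested and called higher (log2 fold change 2.15, SE 0.34, edgeR adjusted p = 0.00336), Ms4a2 had 11, 7 and 10 counts in Foxo1TKO and none in Foxo1Ctrl, and Fcer1a was at 0 in all libraries. Macrophage and monocyte markers summed to 4.27 to 5.70 CPM in Foxo1TKO and 2.30 to 3.45 CPM in Foxo1Ctrl, without overlap. The 1 tested of these 10, Cd68, was not called. It made up most of the sum, with 71, 74 and 78 counts in Foxo1TKO and 37, 39 and 36 in Foxo1Ctrl. Cd14 went the other way, with none in Foxo1TKO and 7, 1 and 7 counts in Foxo1Ctrl. C1qa was at 0 in all 6 libraries. Neutrophil markers, too low to test, summed to 0.24 to 3.69 CPM in Foxo1TKO and to at most 0.20 CPM in Foxo1Ctrl. The sum of 8 proliferation genes was 661 to 896 CPM in Foxo1TKO and 422 to 579 CPM in Foxo1Ctrl, with 4 called higher. The called genes were Top2a, Cdk1, Pcna and Mcm5, and Mcm2 was higher without overlap and not called. Mki67 (log2 fold change -0.12), Ccnb1 (0.14) and Birc5 (-0.41) overlapped between the genotypes and were not called. The study reported reduced proliferation of Foxo1-deficient cells in such cultures. The part of these marker differences in the results for the 10 genes was not tested.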

How the data were processed

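RNA of 3 Foxo1TKO and 3 Foxo1Ctrl cultures was compared. Groups were taken from the titles and genotypes in the labels. Alignment by the authors used STAR 2.7.6a and the GRCm38 genome with Ensembl release 101 genes. Reads of up to 10 loci were kept and counted with RSEM 1.3.1, and strandedness is not given in the sources used here. They deposited per library the expected count of each gene, which is not normalized, its TPM, and its abundance-weighted and effective transcript lengths. The deposited table of normalized signal for 13564 genes equals the rounded expected counts divided by DESeq2 size factors and relative effective lengths (100% of values within 0.1%).

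Expected counts were rounded. Of 55487 genes, the 13691 that reached 10 counts in 3 or more libraries were normalized by TMM. They were tested for genotype, with no other term, by edgeR 4.0.16 (glmQLFit, glmQLFTest, prior count 1; R 4.3.3). P-values were adjusted over these genes by the Benjamini-Hochberg method, and a call needed an adjusted p below 0.05 as well as more than a 1.5-fold difference. The test was tried on simulated counts first. Normalized counts are TMM-scaled, and depth was 14783853 to 19675407 counts per library. Bounds and counting intervals (95%) cover counting error only, with a floor of 3 counts. Ratios and lengths were compared by exact permutation (scipy 1.17.1). Positions, overlaps and transcripts came from GENCODE M21, in which 99.6% of 2752 tested genes with 1 transcript had the length in the count files. Promoter windows came from RefSeq.

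The genes named are the 10, the tested genes of the PDE, prostanoid receptor and adenylyl cyclase lists, up to 4 called genes of each other pathway list, Foxo1, markers, and the 3 genes closest in pattern to each of the 3 genes with the largest change. Adora2a, Hrh2, Ptgs2 and the annotated neighbours of Ptger2, Ptger4 and Pde2a were named after their values were seen. Some genes that this rule takes are not reported here. The members and lists were chosen with earlier results of these data known. Alternatives were DESeq2 1.42.0, limma-voom 3.58.1, other size factors and filters, effective lengths, the deposited signal, a replicate block and each library left out in turn. Figures were drawn with matplotlib 3.10.9.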

Additional observations from a re-analysis of the deposited data

How the results depend on the processing

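Over 16 alternatives the 6 lower calls, the 1 higher call and the 3 genes without a call all stayed as they were, except for Pde8a without Foxo1TKO library 3 (log2 fold change -2.06, edgeR adjusted p = 0.0511). Leaving out 1 library at a time moved the log2 fold change of Pde8a between -2.63 and -1.64 and that of Pde4a, never called, between -0.30 and 0.43, with a change of sign without Foxo1TKO library 1 (-0.30) and without Foxo1Ctrl library 1 (-0.0014). It moved the number of genes called between 1854 and 3321, and the number of other pathway genes called higher between 3 and 8. The log2 ratio of Pde4b to Pde4d differed by -4.38 in normalized counts and by -5.47 in TPM, because TPM divides by the transcript length. Leaving Pde6d out of the summed PDE level, chosen after the data were seen, changed the Foxo1TKO minus Foxo1Ctrl difference in percentage points to -4.29 for Pde2a, -45.0 for Pde4b, 57.9 for Pde4d and 2.27 for Pde7a, from -3.56, -39.7, 37.5 and 0.83. With the replicate number as a block, 3318 genes were called against 3144, of which 2969 were shared, and no call of the 10 genes changed. Same-numbered libraries deviated together with correlations of 0.43, 0.20 and -0.11, and Foxo1TKO library 3 correlated best with Foxo1Ctrl library 2 (0.30). These correlations cannot settle whether same-numbered libraries were paired. The study used paired tests for surface proteins and cell division in such cultures, and does not say whether the RNA libraries were paired. Depth limits Pde2a in Foxo1TKO, Pde4a and Pde8a, which had few counts, and 3 libraries per genotype limit every permutation test to p = 0.1.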
